A study of Vulpes lagopus with 12 samples.

Results

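The genes described here are 9 regulators and executors of apoptosis, the form of cell death in which a cell takes itself apart: BCL2, MCL1, BCL2L1, BCL2A1, BAX, BID, BCL2L11, CASP8 and APAF1. They were taken as every probe set whose only gene symbol in the platform annotation was one of these names. This gave 14 probe sets, among 42924 on the array, for 9 of the 15115 genes with such a symbol. BCL2, MCL1, BCL2L1, BCL2A1 and BAX had a pair of probe sets each, and the other 4 genes had 1.

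The series holds blood RNA of Arctic foxes (Vulpes lagopus) from 11 samples and 1 array titled as a canine control, all on Affymetrix canine arrays whose probes were designed on dog sequence. Each sample was labelled as blood cells, collected in tubes that stabilise RNA. The design names polychlorinated biphenyls (PCBs) and mercury as the pollutants of interest, but no sample label gave an exposure, an age or a batch, so the foxes form 1 group and are numbered 1 to 11 in listed order. The control carries the same fox and blood labels as the others, and its RNA is known here only by its title. Nothing in the labels says that the 11 samples came from 11 animals, so the spread between them may be partly technical.

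In mammals the BCL2 family decides whether the outer membrane of the mitochondrion stays closed. BCL2, MCL1, BCL2L1 (BCL-XL) and BCL2A1 (A1) keep it closed by holding pore formers such as BAX in check, and BH3-only proteins such as BID and BCL2L11 (BIM) bind the guardians or push the pore formers into action. Cytochrome c that leaks out assembles with APAF1 into the apoptosome, which activates CASP9, while CASP8 is the initiator caspase of death receptors and also cuts BID. In blood the balance differs by cell type: neutrophils live briefly and depend on MCL1 and BCL2A1, lymphocytes on BCL2, and maturing red cells and platelets on BCL2L1.

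The arrays were not alike in quality. The difference between the 3' and the middle GAPDH control probe sets, a measure of how far labelling reached from the RNA's 3' end, was 0.42 to 1.08 on the log2 scale in foxes 9, 10 and 11 and 2.56 to 3.19 in foxes 1 to 8, against −0.08 for the control. Bright and dim probe sets lay farther apart in foxes 9 to 11, whose arrays had an SD over all their values of 1.93 to 2.02, than in foxes 1 to 8 (1.60 to 1.79), and the control had 2.11. Fox 2 had the brightest bioB spike, a bacterial transcript added before hybridisation, at 12.48 against 9.37 to 10.56 in the other foxes. Blood markers were present in the foxes: the red cell gene ALAS2 averaged 13.23 ± 1.53 and the neutrophil gene S100A8 14.39 ± 0.79 (SD, n = 11), against 6.57 and 8.64 on the control. Not all blood markers were lower on the control. Monocyte markers averaged 9.35 there, against 9.30 to 10.04 in foxes 1 to 8. NK and cytotoxic markers averaged 7.38 there, against 7.20 to 7.73. Means of the other blood cell types were lower on the control than in any fox. The monocyte gene CTSS was at 12.85 on the control and 9.70 ± 0.47 (SD, n = 11) in the foxes. The control also carried genes of other organs, with ALB of the liver at 15.30, against 6.58 ± 0.20 (SD, n = 11) in the foxes. Differences of members are therefore also given without foxes 9, 10 and 11.

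The first comparison set the 11 foxes against the control array, the only contrast the labels name. Among the 9 genes, BCL2A1 and APAF1 were higher in the foxes and the others did not pass the test. A gene was called when limma, fitted to all 42924 probe sets, gave a Benjamini-Hochberg adjusted p under 0.05, and was read from its probe set with the highest mean. Of the 9 members 2 were called higher in foxes and 0 lower, beside 44.6% of all genes called higher and 18.5% called lower. With quantile normalization again, or with the mean of a gene's probe sets, 4 members were called higher and 0 lower. In either direction, 7497 and 10041 of all 15115 genes were called in these settings, beside 9547 as deposited. At an unadjusted p under 0.05 the same fit also gave 2 higher and 0 lower. The share of all genes at that threshold is not given here. Over probe sets, 3 of 14 were called higher and 0 lower, beside 42.1% and 18.9% of all probe sets. The control array lay outside all 11 foxes for 7 of the 9 members, beside 77.9% of all genes: below them for 6, beside 56.1%, and above them for 1, beside 21.7%.

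Every difference below is fox mean minus control on the log2 scale. The median over all genes was itself 0.53, so each difference is also read against it. The median of the 9 members was 0.51. With arrays centred on their medians the median over all genes was 0.26, and with quantile normalization applied again it was 0.41. Precision is limited by how few arrays there are. With no replicate of the control, limma assumes that it varies like the foxes. The smallest p an exact permutation test can reach here is 0.0833.

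BCL2A1 is a short-lived guardian induced by NF-kB and known from neutrophils and other activated blood cells. On its brighter probe set, Cfa.21056.1.S1_at, its level was 10.73 in fox 11, the lowest, 11.78 at the median and 12.85 in fox 2, the highest, against 8.23 on the control. All 11 foxes lay above the control, with a gap of more than 2 log2 units below the lowest fox. The difference was 3.59 (SE 0.64), or 3.07 above the median of all genes, with an adjusted p by limma of 0.000647 and an exact permutation p at its floor of 0.0833. The second probe set, CfaAffx.21575.1.S1_s_at, ran from 7.97 in fox 6 to 11.16 in fox 10 with a median of 9.08, against 6.68 on the control. It too was above the control in 11 of 11 foxes (2.60, SE 1.05, adjusted p by limma 0.0478), a call that sat at the threshold. That call was lost in 8 of the 16 other settings, for example with centred arrays (2.33, adjusted p by limma 0.0926) or without fox 2 (2.52, adjusted p by limma 0.0607). The brighter probe set was called in every one of its 17 settings, and without foxes 9, 10 and 11 its difference was 3.62 (adjusted p by limma 0.000246).

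The neutrophil markers moved the same way as BCL2A1, apart from LTF (−0.26). The other blood cell lists had median differences from 0.61 (NK and cytotoxic) to 1.68 (platelet), beside 0.53 over all genes. The T cell (0.63) and B cell (0.75) medians were near the lower end. Single markers of these lists went the other way, among them CTSS (−3.15), GZMB (−1.67) and CD163 (−1.33). Of 10 measured neutrophil genes 6 were called higher in foxes and 0 lower, beside 44.6% and 18.5% of all genes, with a median difference of 2.22. Called higher were also 7 of 8 B cell, 8 of 9 erythroid and 8 of 13 T cell genes. For NK and cytotoxic genes it was 4 of 8, for platelet genes 3 of 6 and for monocyte genes 3 of 7. Called lower were 1 T cell and 1 monocyte gene. Foxes 9 to 11 had a mean neutrophil level of 9.85 to 10.99 and foxes 1 to 8 one of 8.74 to 10.13, against 7.01 for the control. In blood taken as a whole, fewer cells of a type and less RNA per cell cannot be told apart, and the part of cell makeup in the BCL2A1 difference was not tested.

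MCL1 is the guardian with the fastest turnover and the one that neutrophils need most. Its brighter probe set, Cfa.34.1.S1_s_at, ran from 12.79 in fox 1 through a median of 14.58 to 15.19 in fox 10, against 14.06 on the control. The control sat inside the foxes, with 7 of them above it and 4 below. The difference of 0.11 (SE 0.72) was not called (adjusted p by limma 0.902). The dimmer probe set, Cfa.34.1.S1_at, also had the control among the foxes, from 6.78 to 8.38 in foxes and 7.31 on the control. This result depended on scaling: after quantile normalization again the MCL1 difference was 1.20 (adjusted p by limma 0.00568), and with centred arrays it was −0.16 (adjusted p by limma 0.872). The dimmer probe set was at −0.07 after quantile normalization again (adjusted p by limma 0.901), so the call gained there rests on 1 probe set. Without foxes 9, 10 and 11 the brighter one was at −0.15 (adjusted p by limma 0.846).

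BCL2, the founding member of the family, and BCL2L1 had the control below all foxes without being called. On Cfa.110.1.S1_s_at, BCL2 ran from 8.20 in fox 1 through a median of 8.64 to 9.31 in fox 9, against 8.17 on the control. The lowest fox was only just above the control. The difference of 0.51 (SE 0.30, adjusted p by limma 0.156) was 0.02 below the median of all genes. Its second probe set, Cfa.110.2.S1_at, gave 7.13 in fox 10 to 8.13 in fox 3 and 6.97 on the control, a difference of 0.74 (SE 0.31, adjusted p by limma 0.0521), which was called in 5 of 17 settings. The mean of both probe sets was called (0.62, adjusted p by limma 0.00191), and so was the first one after quantile normalization again (0.60, adjusted p by limma 0.0354). Without foxes 9, 10 and 11 the first was at 0.38 (adjusted p by limma 0.130), while the second was called, at 0.89 (adjusted p by limma 0.00274).

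BCL2L1 on Cfa.7221.1.A1_at ran from 7.56 in fox 1 through a median of 8.56 to 9.47 in fox 9, against 7.25 on the control. All 11 foxes were above the control, and they spread widely among themselves (SD 0.61). The difference was 1.22 (SE 0.58, adjusted p by limma 0.0835). It was called without fox 1 (1.31, adjusted p by limma 0.0490) and with the mean of its probe sets (0.77, adjusted p by limma 0.0287), and stood at 0.99 without foxes 9, 10 and 11 (adjusted p by limma 0.0752). The second probe set, CfaAffx.11457.1.S1_s_at, was nearly flat, at 6.54 to 7.15 in foxes and 6.53 on the control.

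BAX, which opens the mitochondrial membrane once activated, ran on Cfa.22.1.S1_at from 7.74 in fox 3 through a median of 7.96 to 8.69 in fox 11, against 7.63 on the control. The difference was 0.47 (SE 0.34, adjusted p by limma 0.247). On CfaAffx.6742.1.S1_s_at the control, at 6.30, lay among the foxes (6.21 to 6.66). On the first probe set all 11 foxes were above the control, but neither probe set was called. Without foxes 9, 10 and 11 the difference on the first was 0.27 (adjusted p by limma 0.108).

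BID, the BH3-only protein that links death receptors to mitochondria, was the one member whose control value lay above all foxes. It ran from 8.96 in fox 5 through a median of 9.68 to 10.45 in fox 4, against 10.75 on the control. All 11 foxes were below the control, yet the difference of −0.99 (SE 0.55) was not called (adjusted p by limma 0.132). Without foxes 9, 10 and 11 it was −1.16 (adjusted p by limma 0.0675), and after quantile normalization again −0.08 (adjusted p by limma 0.866).

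BCL2L11, the BH3-only protein that rises when blood cells lose survival signals, ran from 6.34 in fox 10 through a median of 6.66 to 7.53 in fox 5, against 6.13 on the control. Fox 5 stood apart, since the next highest fox, fox 2, was at 6.97. The difference was 0.60 (SE 0.31, adjusted p by limma 0.106), and without fox 5 it was 0.52 and called (adjusted p by limma 0.0332). Without foxes 9, 10 and 11 it was 0.67 (adjusted p by limma 0.0716).

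Of the execution side, APAF1 differed and CASP8 did not pass the test. APAF1 ran from 7.23 in fox 5 through a median of 7.53 to 7.76 in fox 4, against 6.43 on the control. The foxes lay close together and all 11 were above the control. The difference was 1.09 (SE 0.21), or 0.56 above the median of all genes, with an adjusted p by limma of 0.00122. It was called in all 17 settings, with differences between 0.80 and 1.12, and without foxes 9, 10 and 11 it stood at 1.05 (adjusted p by limma 0.00217). CASP8 ran from 6.22 in fox 3 through a median of 6.47 to 6.67 in fox 9, against 6.39 on the control, and the control lay among the foxes (0.08, SE 0.15, adjusted p by limma 0.662). Its difference was 0.07 without foxes 9, 10 and 11 (adjusted p by limma 0.704) and −0.22 after quantile normalization again.

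**Figure D1:**
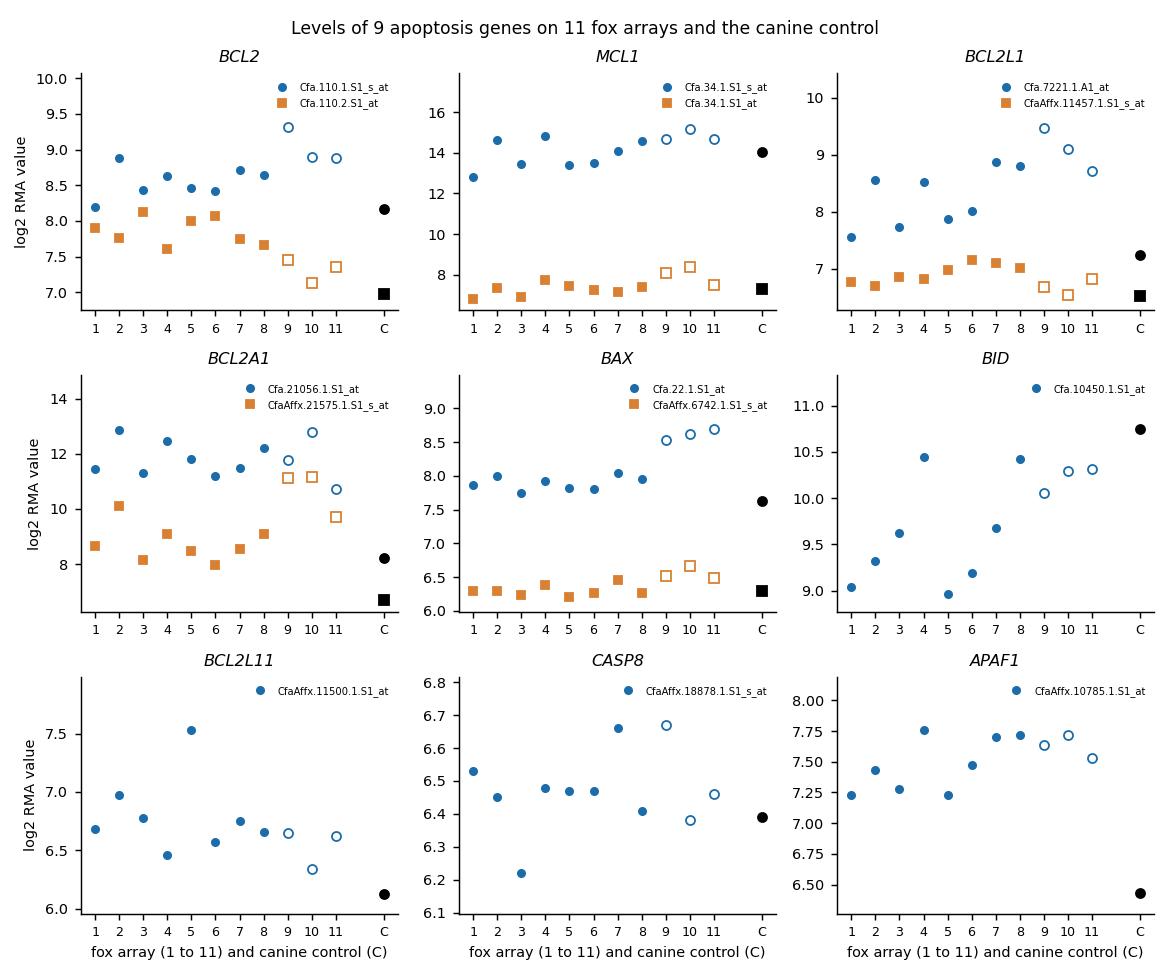
Log2 RMA value (vertical axis) of each probe set of the 9 genes on fox arrays 1 to 11 and the canine control (C, black); circles are the probe set read for the gene, squares the second one, and open symbols are foxes 9, 10 and 11. BCL2A1 and APAF1 lie above the control in all 11 foxes, and MCL1 has the control, at 14.06, inside its foxes.

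**Figure D2:**
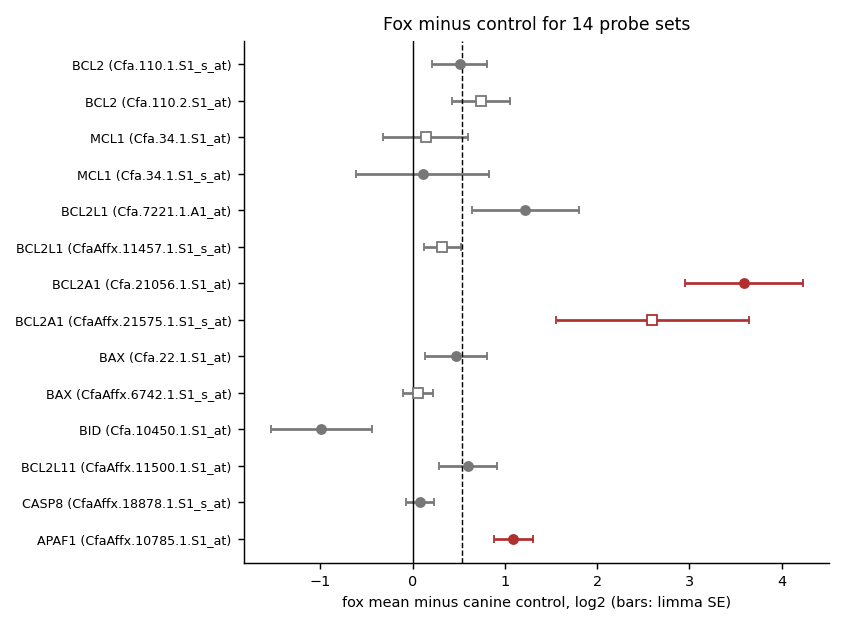
Fox mean minus canine control in log2 units for the 14 probe sets, with limma SE as bars; filled circles are the probe set read for a gene, open squares the second one, red marks an adjusted p under 0.05, and the dashed line is the median of all genes at 0.53. Both BCL2A1 probe sets and APAF1 are red, and BID, at −0.99, is the one gene below 0.

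The other genes of the pathway were read from 9 lists that contain the members. Of 62 listed genes 50 had a probe set with that single symbol, of which 16 were called higher in foxes, 9 lower and 25 were not called, beside 44.6% and 18.5% of all genes. With arrays centred on their medians the split was 11 higher and 11 lower, and without foxes 9, 10 and 11 it was 18 higher and 12 lower. In either direction, 7103 and 11254 of all 15115 genes were called in these settings, beside 9547 as deposited. The median difference over the 50 genes was 0.31, beside 0.53 over all genes.

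Guardians and pore formers beyond the members were few. BCL2L2 (BCL-W), a guardian, differed by 0.29 (SE 0.13, adjusted p by limma 0.0589). BAK1, the partner of BAX at the mitochondrion, was higher by 0.95 (SE 0.18, adjusted p by limma 0.000827). It stood at 8.86 to 9.31 in foxes and 8.12 on the control, so that the groups did not overlap. The control lay below all foxes for 56.1% of all genes.

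BH3-only genes and their relatives were higher in foxes in 5 of 7 cases, with 0 lower, beside 44.6% and 18.5% of all genes, and their median was 0.77, beside 0.53. BNIP3L, a mitochondrial receptor that red cell precursors use to clear their mitochondria, had the largest difference of these. It ran from 9.63 in fox 1 to 12.29 in fox 2 with a median of 10.94, against 7.53 on the control, a difference of 3.47 (SE 0.89, adjusted p by limma 0.00557). Erythroid markers lay beside it, with 8 of 9 measured genes called higher, beside 44.6% of all genes. Their mean levels were 8.07 to 8.97 in the foxes and 7.04 on the control. B cell markers were also called higher, in 7 of 8 cases. The median difference was 1.03 for erythroid and 0.75 for B cell markers, beside 0.53 over all genes. The part of red cell RNA in the BNIP3L difference was not tested. HRK was higher by 1.15, BAD by 0.81, BMF by 0.77 and BNIP3 by 0.69. BMF was not called with centred arrays (0.51, adjusted p by limma 0.0594).

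Of the mitochondrial factors released during apoptosis, CYCS, AIFM1 and ENDOG were lower in foxes. CYCS, cytochrome c itself, stood at 9.22 to 10.02 in foxes and at 13.45 on the control, a difference of −3.94 (SE 0.25, adjusted p by limma 4.44e-08). AIFM1, a flavoprotein anchored to the inner mitochondrial membrane, differed by −5.08 (SE 0.34), and the nuclease ENDOG by −0.93 (SE 0.22). Both were called, and no fox overlapped the control in any of the 3 genes. The control lay above all foxes for 21.7% of all genes and outside them for 77.9%. Of the 7 genes in this list 1 was higher (APAF1), 3 were lower, beside 44.6% and 18.5% of all genes, and 3 were not called (CASP9, DIABLO and HTRA2). Without foxes 9, 10 and 11, CASP9 was called higher (0.53, adjusted p by limma 0.0413) and DIABLO lower (−0.80, adjusted p by limma 0.0177). Beside these genes, the liver, gut and stomach, and muscle lists were lower in foxes, with mean levels of 7.09 to 7.98 for liver genes in the foxes and 13.63 on the control. How much these organs' RNA accounts for the mitochondrial values was not tested.

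Death receptor genes were called higher in 5 of 10 cases and lower in 1, beside 44.6% and 18.5% of all genes. TNFSF10 (TRAIL), a death ligand, was the lower one, at 7.39 to 7.79 in foxes and 12.65 on the control (−5.03, SE 0.16, adjusted p by limma 5.51e-11). The receptors TNFRSF1A and FAS were higher by 1.08 and 0.81, the ligand FASLG by 0.66, the adaptor FADD by 0.59 and the CASP8 inhibitor CFLAR by 0.57. Beside the 0.53 of the median gene, TNFRSF1A was 0.56 above it and the other shifts lay nearer to it. FADD and CFLAR were not called with centred arrays, FADD and FAS not after quantile normalization again.

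Among executioners and their substrates, CASP6 was lower by 3.77 on the log2 scale in foxes, at 6.20 to 8.24 against 10.96 on the control. Its difference of −3.77 (SE 0.63) had an adjusted p by limma of 0.000425. The chaperone and nuclease of DNA fragmentation, DFFA (0.73) and DFFB (0.59), were higher, and PARP1 (−0.48) was lower. DFFB was not called with centred arrays (0.32, adjusted p by limma 0.120). The PARP1 value was −0.02 with the mean of its probe sets and then not called. Of the inhibitor of apoptosis proteins, BIRC6 was called lower (−1.68, SE 0.65, adjusted p by limma 0.0391), a call lost without any 1 of foxes 1, 4, 6 and 8. After quantile normalization again BIRC6 was at −0.76 (adjusted p by limma 0.237). Neither measured inflammatory caspase, CASP4 or CASP12, was called. Upstream, MDM2 (−2.09) and FOXO1 (−1.85) were lower and FOXO3 (1.30) was higher; FOXO3 was not called under either rescaling and MDM2 not after quantile normalization again.

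**Figure D3:**
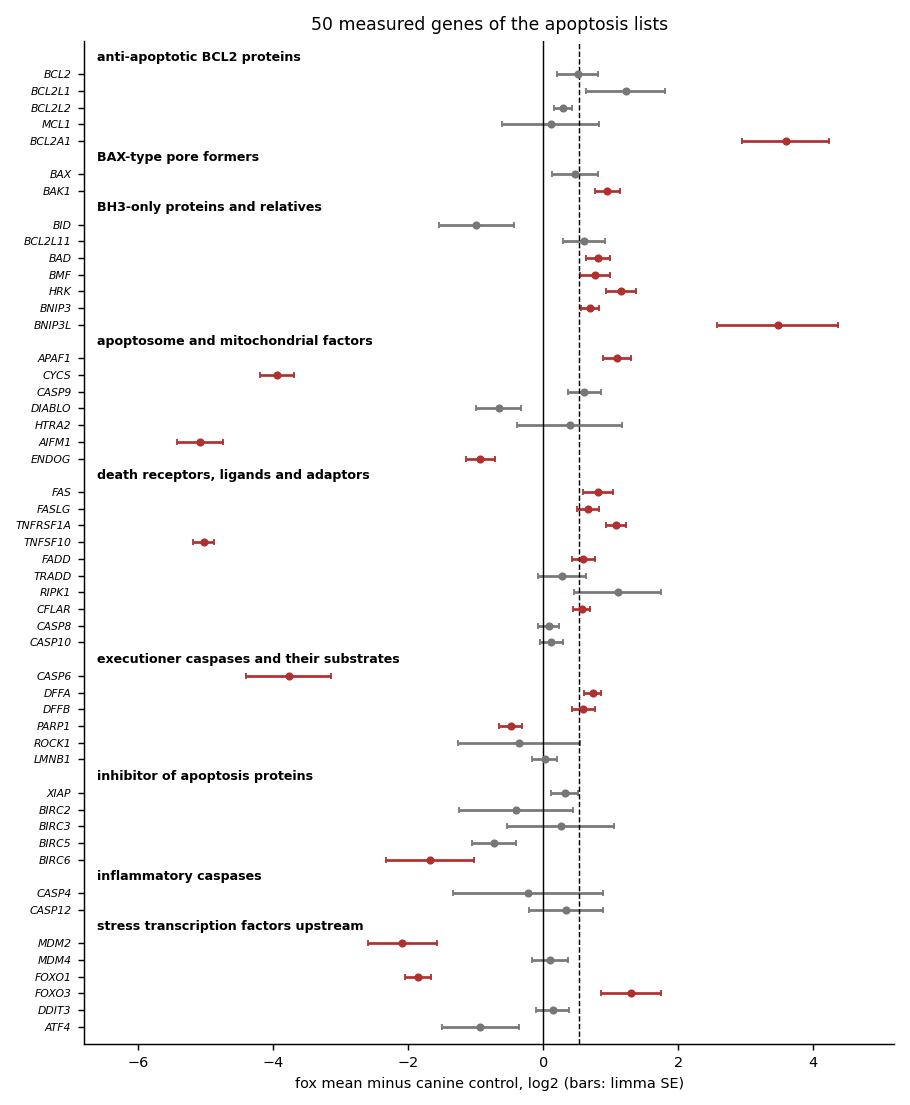
Fox mean minus canine control in log2 units, with limma SE as bars, for the 50 measured genes of 9 apoptosis lists; red marks an adjusted p under 0.05 and the dashed line is the median of all genes at 0.53. AIFM1, TNFSF10, CYCS and CASP6 lie far to the left at −5.08 to −3.77, and BCL2A1 and BNIP3L far to the right at 3.59 and 3.47.

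The second question was how the genes differed among the foxes, for which no test applies since the foxes have no groups. On the probe set read for each gene, MCL1 had the widest spread of the 9, at an SD of 0.76 over 11 foxes. BCL2A1 (0.68), BCL2L1 (0.61) and BID (0.57) followed, and these 4 genes reached an SD of at least 0.5, as did 18.3% of all genes. The same 4 did so within foxes 1 to 8, where 9.61% of all genes did. CASP8 was the most even, with an SD of 0.12, and APAF1 had 0.21, against a median over all genes of 0.23. The SD of MCL1 was larger than that of 91.8% of genes, and that of CASP8 larger than that of 7.38%. CASP8 averaged 6.47 in the foxes and BCL2L11 6.73, beside 6.58 for the liver gene ALB and 6.93 for the gut gene SI. APAF1 averaged 7.52, beside 7.66 for the median gene. Without detection calls, an even level this low cannot be told from background. After quantile normalization again the SD of MCL1 was 0.29 and that of BID 0.39, and those of BCL2A1 and BCL2L1 were 0.71 and 0.54, though within foxes 1 to 8 BCL2A1 then had 0.35. With the mean of a gene's probe sets the SD of BCL2A1 was 0.78, that of MCL1 0.59 and that of BCL2L1 0.29.

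Foxes 9, 10 and 11, which stood apart on GAPDH, were separated from foxes 1 to 8 in BAX. They lay at 8.54 to 8.69, against 7.74 to 8.05 in foxes 1 to 8 on the brighter probe set. The second BAX probe set gave 6.49 to 6.66 against 6.21 to 6.45. BAX was thus 1 of 9 members with these 3 foxes all above, beside 14.2% of all genes, and 0 of 9 were all below, beside 14.6%. These foxes also had 5 of 7 measured monocyte genes and 5 of 13 T cell genes above all of foxes 1 to 8. The same held for 3 of 6 platelet, 3 of 8 NK and cytotoxic and 3 of 10 neutrophil genes. It held for 1 of 8 B cell and 0 of 9 erythroid genes. The part of cell makeup or RNA quality in the BAX values was not tested.

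Probe sets of a gene did not all agree on these foxes. For BCL2 the first probe set put them at 8.88 to 9.31, the top of the range, and the second put them at 7.13 to 7.45, below all of foxes 1 to 8 (7.61 to 8.13). Within foxes 1 to 8 the BCL2 pair had a Pearson r of −0.60, so the fox order for BCL2 depends on the probe set. The BCL2L1 pair also disagreed (0.24), while the pairs of BCL2A1 (0.94), MCL1 (0.75) and BAX (0.71) ran together. The suffix _s_at marks probe sets whose probes match several transcripts.

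Within foxes 1 to 8 the level of MCL1 followed the spread of the whole array, a relation looked for in all 9 members after the values were seen. Foxes 2, 4 and 8, with array SDs of 1.76 to 1.79, had MCL1 at 14.58 to 14.83, and fox 1, with the smallest array SD, had it at 12.79. Over these 8 arrays MCL1 and the array SD had a Pearson r of 0.97 (exact permutation p 0.000149, adjusted over 9 genes 0.00134) and a Spearman rho of 0.95 (exact permutation p 0.00114). Without the 2 arrays farthest from the median SD the r was 0.95. After quantile normalization again it was 0.85 (adjusted exact permutation p 0.0426). BID gave 0.85 (adjusted exact permutation p 0.0430) and a rho of 0.90, but an r of 0.61 (exact permutation p 0.197) without the farthest 2 arrays. Leaving those out also narrows the range of the array SD and leaves fewer arrays. The lower r for BID therefore cannot decide whether its relation rests on them. The other 7 genes did not pass, from −0.40 for BCL2L11 to 0.81 for BCL2L1. Near the threshold were BCL2L1, APAF1 (0.80) and BCL2 (0.79), each at an adjusted exact permutation p of 0.0518. BCL2A1 (0.76) was at 0.0557. These genes, like MCL1 and BID, had an r above 0.7. Of all genes 15.1% had an r above 0.7 with the array SD. That share was not taken over genes as bright as MCL1, whose level lay far above the array medians of 7.10 to 7.17. The relation can therefore not be called particular to MCL1.

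**Figure D4:**
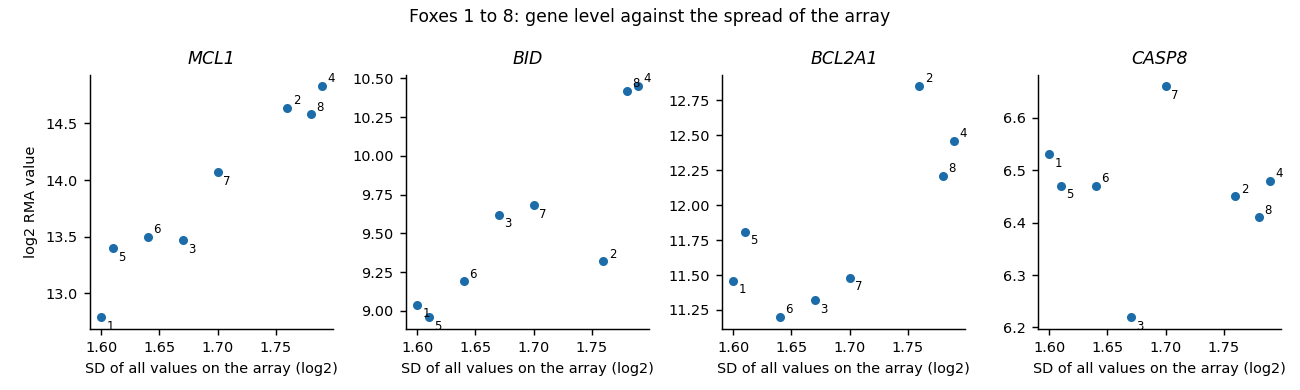
Log2 RMA value (vertical axes, which do not start at 0) of MCL1, BID, BCL2A1 and CASP8 against the array SD in log2 units, for foxes 1 to 8, numbered beside their points. MCL1 climbs along the axis from 12.79 in fox 1 to 14.83 in fox 4, and CASP8 has no slope (r −0.07).

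No pair of members passed the adjustment over these arrays. Of 36 pairs 0 had a Benjamini-Hochberg adjusted exact permutation p under 0.05 by Pearson's r or by Spearman's rho, and 11 and 10 had an unadjusted one. The highest r was 0.88 for BCL2L1 with APAF1 (exact permutation p 0.0113, adjusted 0.0789; rho 0.71). BCL2L1 was read from its brighter probe set, which had an r of 0.24 with its second. With the mean of a gene's probe sets the lowest adjusted exact permutation p over the pairs was 0.208. BCL2 with MCL1 gave 0.87 (exact permutation p 0.00518, adjusted 0.0789) and a rho of 0.74. BCL2 with BCL2L1 gave 0.86 and a rho of 0.86, and 0.96 without the 2 arrays farthest from the median of BCL2. BCL2L11 had no r above 0.08 with any other member and reached −0.57 with APAF1 and −0.56 with BID. Without fox 2, whose spikes were brightest, 3 pairs passed: BCL2 with BCL2L1 (0.93, adjusted exact permutation p 0.0250), MCL1 with APAF1 (0.92, adjusted exact permutation p 0.0250) and MCL1 with BID (0.93, adjusted exact permutation p 0.0452). MCL1 and BID are also the members that passed with the array SD. BCL2, BCL2L1 and APAF1 had an r of 0.79 to 0.81 with it. The part of the array SD in these pairs was not tested.

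The cell type lists were set beside the members in the same 8 foxes. Of 63 combinations 0 passed the adjustment by Pearson's r or Spearman's rho, and 16 and 7 had an unadjusted exact permutation p under 0.05. MCL1 had an r of 0.90 with the monocyte list (exact permutation p 0.00561, adjusted 0.123; rho 0.83) and 0.87 with the neutrophil list. BCL2 had an r of 0.90 with the erythroid list (exact permutation p 0.00367, adjusted 0.123; rho 0.90), which was 0.92 without the farthest 2 arrays. This value and the BCL2 pairs above were read from its first probe set, which had an r of −0.60 with the second over these foxes. For BCL2L1, likewise read from its brighter probe set, that r was 0.24. BCL2L1 had its highest r with the T cell list (0.77, exact permutation p 0.0186, adjusted 0.167; 0.37 without the farthest 2 arrays) and 0.74 with the erythroid list (exact permutation p 0.0331, adjusted 0.174). BID had 0.86 with the monocyte list, which was 0.60 without the farthest 2 arrays. BCL2L11 was alone in having its highest r with the B cell list (0.72, exact permutation p 0.0279, adjusted 0.174), which was 0.30 without the farthest 2 arrays.

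**Figure D5:**
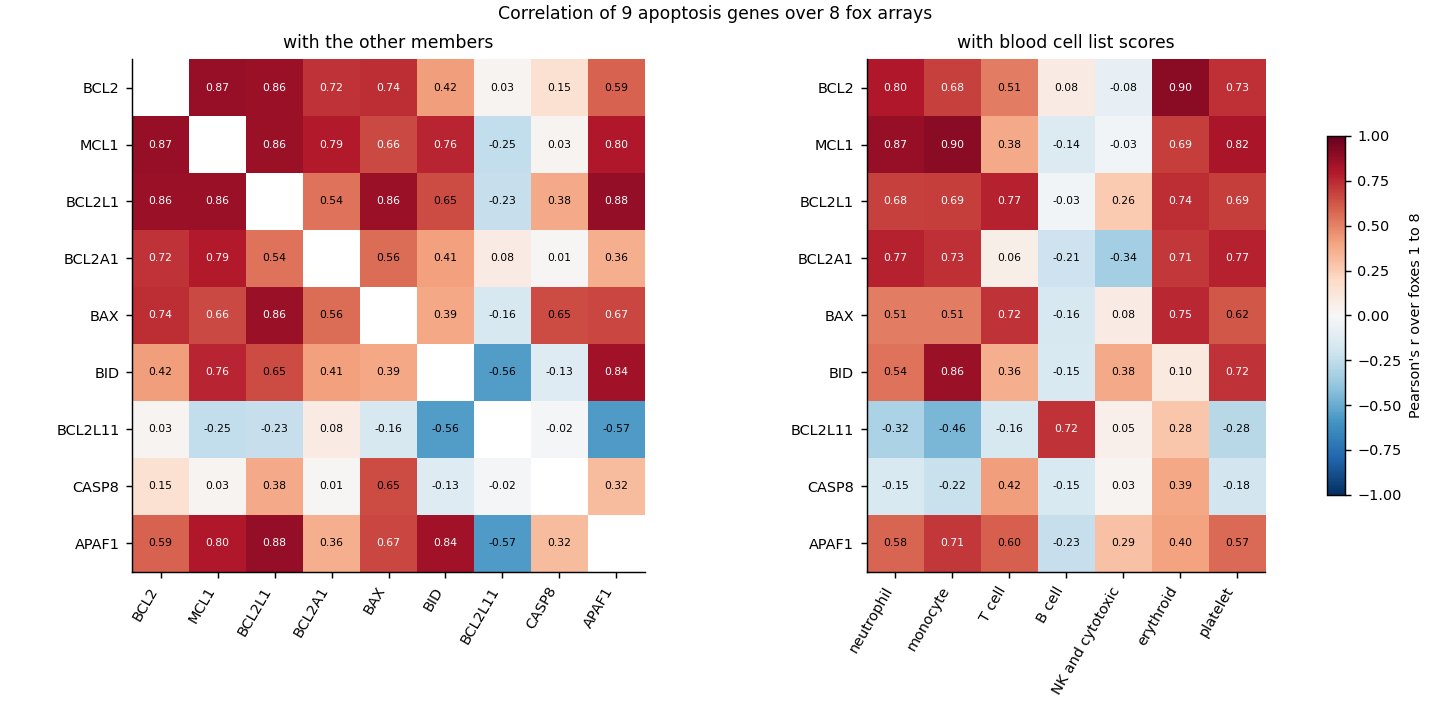
Pearson's r over foxes 1 to 8 (n = 8 arrays) of the 9 genes with each other (left) and with 7 blood cell list scores (right), red for positive and blue for negative. The darkest red among member pairs is BCL2L1 with APAF1 at 0.88, and the darkest blue is BCL2L11 with APAF1 at −0.57.

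The genes whose pattern over foxes 1 to 8 was most like each member were sought among 2866 genes brighter than the median gene and with an SD of at least 0.3. With 8 arrays and so many genes a high r is easily reached, so these are descriptions. MCL1 was closest to BCL6, a transcriptional repressor, and to FBXL5, an iron-sensing ubiquitin ligase subunit (both 0.99). Over these foxes BCL6 lay at 13.80 to 15.20 and FBXL5 at 12.99 to 14.80. Both were thus about as bright as MCL1, whose level followed the array SD. The part of the array SD in these likenesses was not tested. BCL2A1 was closest to PPP1R15A, a phosphatase subunit of the stress response, and to UBE4A (both 0.98). BCL2L1 was closest to ADIPOR1, an adiponectin receptor, and MAP7D1 (both 0.98), and BCL2, on its first probe set, to ELN (0.99) and SH3BP2 (0.98). BID was closest to SETD3 and DDX50 (both 0.99), APAF1 to SULF2 and CNOT7 (both 0.98), and BAX to KDM3B (0.98) and HIRIP3 (0.97). The genes nearest to BCL2L11, NUCKS1 (0.90) and PRDM10 (0.88), and to CASP8, PSPC1 (0.81) and HAMP (0.75), were less alike.

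Over the 50 pathway genes the median SD among 11 foxes was 0.26, beside 0.35 over the 9 members, but some genes outside the members differed widely. CASP4, an inflammatory caspase, lay at 11.86 to 12.21 in foxes 9 to 11, against 9.08 to 10.80 in foxes 1 to 8. The kinase RIPK1 of death receptors lay at 8.96 to 9.67 against 7.61 to 8.19, and HTRA2, a mitochondrial protease, at 9.27 to 9.93 against 7.28 to 8.62. In all, 8 of the 50 pathway genes had these 3 foxes all above and 0 all below, beside 14.2% and 14.6% of all genes. Outside the members, the widest spreads within foxes 1 to 8 were those of BNIP3L (SD 0.84), the ubiquitin ligases BIRC2 (0.82) and BIRC3 (0.76), and the caspase substrate ROCK1 (0.63). BNIP3L, BIRC2 and BIRC3 were highest in fox 2, at 12.29, 12.77 and 9.38, and ROCK1 in fox 4, at 9.84.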

How the data were processed

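Blood RNA was measured on 12 Affymetrix Canine Genome 2.0 arrays. The authors made the log2 values with RMA and the Expression Console software of Affymetrix, according to the submitters' processing notes. Software versions, and the set of arrays that RMA was run on, were not stated there. Of 43035 probe sets 111 were control probe sets, left out of tests; without detection calls, low values have no floor. Of the tested probe sets 29254 had 1 symbol, 439 several and 13231 none. The members and lists were chosen with earlier results of these data known. limma 3.58.1 (lmFit and eBayes) in R 4.3.3 compared 11 foxes with 1 control, with Benjamini-Hochberg adjustment over all tested probe sets; on simulated data it returned shifts of about the size put in and called large ones more often than small ones. Correlations over foxes 1 to 8 used two-sided exact permutation of 40320 orders, and each cell list was scored by averaging centred log2 values over its genes. Cell lists were 10 in number, 7 of them of blood. All members were named. Pathway genes named were up to 4 per list with the largest called difference and up to 3 with the largest SD over foxes 1 to 8; the remaining called genes and BCL2L2, CASP9 and DIABLO were added after their values were seen. Alternatives were a filter on low values, 2 rescalings, other limma settings, a minimum difference, the mean of probe sets, the foxes' range, and foxes left out.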

Additional observations from a re-analysis of the deposited data

How the results depend on the processing

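Among single member differences recomputed under other settings, 154 kept their side of the threshold and 6 became called: BCL2 in 2 settings, BCL2L1 in 2, MCL1 in 1 and BCL2L11 in 1, with the values given above. BCL2A1 and APAF1 stayed called in every setting. The 2 called members became 4 after quantile normalization again and 4 with each gene's probe sets averaged, all higher in foxes. Of 15115 genes, 7497 and 10041 were called in these 2 settings in either direction, beside 9547 as deposited. The control lay outside the foxes for 7 members, beside 77.9% of all genes. Without single foxes the count ran from 2 to 3 in all and among higher ones, with 0 lower throughout. The 25 called pathway genes, 16 of them higher, became 13 and 6 with a difference of at least 1. Without single foxes they ran from 24 to 27 in all, 16 to 19 higher and 8 to 10 lower. Over all genes the called ones then ran from 9132 to 10092. The 4 members with an SD of at least 0.5 became 2 after quantile normalization again, 3 with probe sets averaged, and 0 at an SD of at least 1; without any single fox they were 4. Of member pairs 0 to 3 passed without single foxes, the 3 only without fox 2, and of cell list combinations 0 throughout. With 6 arrays an exact p cannot go below 0.00139, so leaving out 2 arrays could hardly pass an adjustment over 36 pairs. Of members correlated with the array SD 2 passed as deposited and 1 after quantile normalization again. No paired analysis was possible because the fox numbers are only listing order and the control is a single array.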
